A study of Saccharomyces cerevisiae with 6 samples.

Results

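The 10 genes described here carry sulfate from the medium into homocysteine. They are the sulfate permease genes SUL1 and SUL2, the sulfate activation and reduction genes MET3, MET14 and MET16, the sulfite reductase genes MET5 and MET10, the sirohaem synthesis genes MET1 and MET8, and the homocysteine synthase gene MET17. They were chosen by name, as steps of 1 pathway, from 5449 genes of the budding yeast Saccharomyces cerevisiae with a probe set on the array. Earlier results of these data were known when the choice was made, so shares among the 10 beside all tested genes are descriptions only. Each of the 10 was matched to 1 probe set, and each read above background on all 6 arrays.

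The arrays measured RNA from log-phase cultures of the W303 laboratory background, grown at 30 °C in YPD, a rich medium. One group is deleted for RPH1, which encodes a JmjC-family histone demethylase with zinc fingers (3 arrays), and the other is wild type (3 arrays). Both groups share the background, medium and growth phase, and the study asked which genes Rph1 regulates. The labels number the arrays 1 to 3 in each group and give the replicate 1 arrays a sample code of another form than replicates 2 and 3. All values below are MAS5 signals, the linear output of the Affymetrix summary method, or log2 differences of them.

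Yeast takes up sulfate through high-affinity permeases and activates it with ATP to adenylylsulfate and then to phosphoadenylylsulfate (PAPS). PAPS is reduced to sulfite and sulfite to sulfide by an enzyme that carries sirohaem, and sulfide is joined to O-acetylhomoserine to give homocysteine, the precursor of methionine, cysteine and S-adenosylmethionine. The genes are switched on together by the activator Met4 with its DNA-binding partners Cbf1, Met31 and Met32, and are repressed when sulfur amino acids are plentiful, as they are in rich medium.

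The deletion was present as labelled. RPH1 read 4.52, 8.18 and 8.99 on deletion arrays 1, 2 and 3, against 305, 362 and 385 on wild-type arrays 1, 2 and 3, with a limma adjusted p of 0.00196. The deletion values lay below or at their arrays' background levels of 8.59, 12.7 and 8.98, so the size of the drop is known only as a lower bound and no fold is given. The replicate 1 arrays stood apart from the others in 2 of 3 added control RNAs. The dap control read 2.02 on deletion 1 and 0.0959 on wild type 1, against 42.7 to 55 on the other 4 arrays, and the bioC control read 133 and 153, against 426 to 464. The bioB control read 103 on deletion 1 and 132 on wild type 1, against 133 to 173. The 3'/5' signal ratio of ACT1, a measure of RNA integrity, was 1.12 on deletion 1 and 1.18 on wild type 1, and 0.980 to 1.04 on the other 4. Whether what moved these controls had a part in the results below was not tested.

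None of the 10 genes passed the test for the deletion. In the fit with genotype as the only term, 0 of 10 passed, against 2 of 5402 tested genes (0.037%). All 10 limma adjusted p were 1.00, and 0 of 10 had an unadjusted p under 0.05, against 5.33% of all tested genes. The 10 log2 differences, deletion minus wild type, all lay below 0, from -0.32 for MET14 to -0.023 for MET8, with a median of -0.093 beside 0.0012 over all tested genes. Of all tested genes 49.6% lay below 0. No member had every deletion array below every wild-type array (0 of 10, background 3.04%) or above (0 of 10, background 7.55%). Neither could occur in the 10, because the lowest arrays of each were the replicate 1 arrays, 1 of each genotype. These counts therefore say nothing of the deletion. The exact permutation test, 2-sided, gave p = 0.5 to 1 for the 10 genes, where 3 arrays against 3 cannot go below 0.1. That floor needs the genotypes fully apart, so it too was out of reach for the 10. Blocking on the replicate number, limma called 6 genes (0.111%), and with a term for replicate 1 against replicates 2 and 3 it called 34 (0.629%), again with 0 of the 10 in either. The design text calls the samples biological and says no more of their cultures, so the p-values measure the spread between these samples.

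The 10 genes differed by replicate. On both replicate 1 arrays, deletion and wild type alike, every one of the 10 genes read lower than on any of the other 4 arrays, which 25.1% of all tested genes did. With genotype and replicate 1 as terms, 9 of 10 were lower in replicate 1 (limma adjusted p under 0.05), against 1000 of 5402 genes (18.5%) lower and 992 (18.4%) higher, 36.9% in both directions together. The median log2 difference of the 10, replicate 1 minus replicates 2 and 3, was -0.95, beside 0.0037 over all tested genes. A difference under -1 was measured for 5 of the 10 and for 1.26% of all tested genes. Genes of 1 pathway on the same arrays are not independent of each other, and replicate 1 is 1 array of each genotype. No other set of arrays repeats replicate 1, so the p-values for it measure spread between arrays and not between such sets. Growth, RNA handling and hybridisation of that replicate cannot be told apart.

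**Figure D1:**
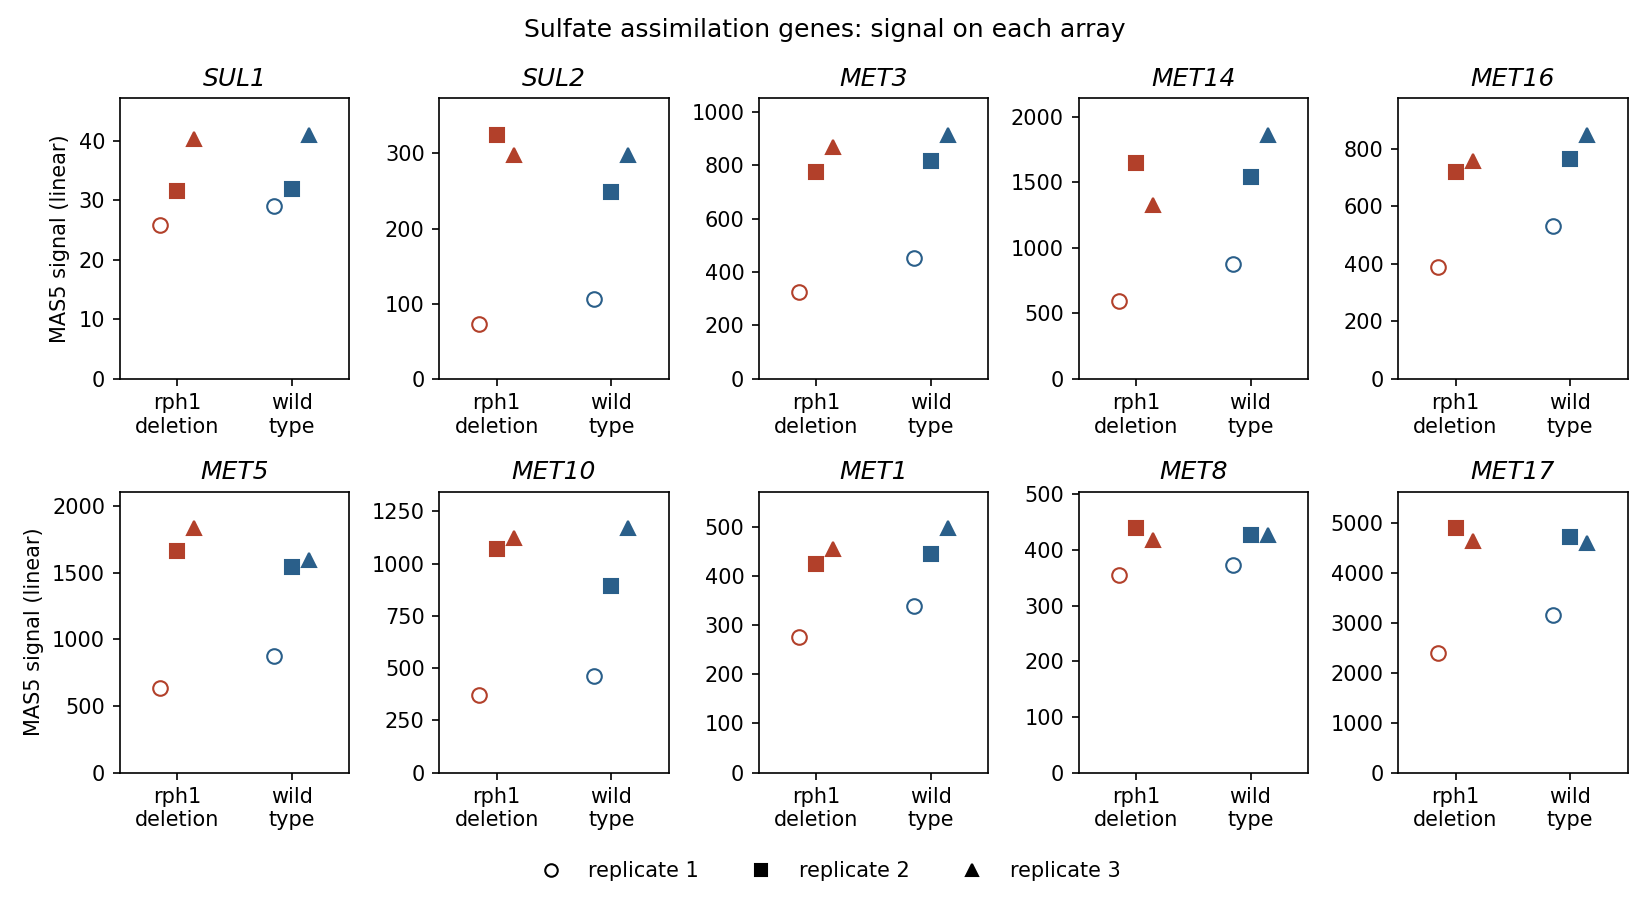
MAS5 signal (linear, each axis from 0) of the 10 genes on each of the 6 arrays, rph1 deletion in red at left and wild type in blue at right; marker shape gives the replicate, and the open circle is replicate 1. In all 10 panels the 2 open circles are the lowest points, with the deletion array under the wild-type array. The replicate 2 and 3 points of the genotypes overlap or meet in all but MET16, with the deletion below, and MET5, with the deletion above. In SUL2 they meet at 298.

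Of the 2 permease genes, SUL2 was lower in replicate 1 and SUL1 did not pass. SUL2 (YLR092W), a high-affinity sulfate permease, read 73.4, 325 and 298 on deletion arrays 1, 2 and 3, against 106, 248 and 298 on wild-type arrays 1, 2 and 3. The replicate 1 arrays were low in both genotypes, and among the other 4 the genotypes met at 298. SUL2 was 3.3-fold lower in replicate 1 (log2 difference -1.72, SE 0.17, limma adjusted p = 0.00265), the 8th lowest difference of the 5402 genes and the largest drop among the 10. SUL1 (YBR294W), the other high-affinity permease, read 25.8, 31.5 and 40.2 on deletion arrays 1, 2 and 3, against 29.1, 31.9 and 41.0 on wild-type arrays. It is dim, and in both genotypes its replicate 2 signal lay nearer to replicate 1 than to replicate 3. SUL1 differed by -0.39 (SE 0.14), and did not pass (limma adjusted p = 0.0730), except when wild type 2 was left out (-0.48, adjusted p = 0.0326). Whether the 2 permease genes differ in this shift was not tested.

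The genes that activate and reduce sulfate were all lower in replicate 1. MET3 (YJR010W), ATP sulfurylase, which makes adenylylsulfate, read 325, 774 and 868 on deletion arrays 1, 2 and 3, against 451, 815 and 914 on wild-type arrays. Its difference was -1.14 (SE 0.11, limma adjusted p = 0.00265). MET14 (YKL001C), adenylylsulfate kinase, which makes PAPS, read 595, 1651 and 1327 in the deletion, against 880, 1540 and 1864 in wild type, and differed by -1.13 (SE 0.14, limma adjusted p = 0.00431). Its deletion 3 array stood below wild type 3 while deletion 2 stood above wild type 2. MET16 (YPR167C), PAPS reductase, which gives sulfite, read 388, 720 and 757 in the deletion, against 533, 766 and 849 in wild type. It differed by -0.76 (SE 0.094, limma adjusted p = 0.00431), and its deletion arrays lay under the same-numbered wild-type arrays in all 3 pairs.

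The 2 subunits of sulfite reductase, which reduces sulfite to sulfide, were both lower in replicate 1. MET5 (YJR137C), the beta subunit, read 637, 1659 and 1832 on deletion arrays 1, 2 and 3, against 877, 1541 and 1592 on wild-type arrays, a difference in replicate 1 of -1.14 (SE 0.14, limma adjusted p = 0.00431). MET10 (YFR030W), the alpha subunit, read 373, 1069 and 1121 in the deletion, against 463, 893 and 1168 in wild type, a difference of -1.35 (SE 0.14, limma adjusted p = 0.00284). For both, the replicate 1 arrays were less bright than the other 4 by more than the other 4 were spread. The gap between the 2 shifts was 0.20 with a combined SE of 0.20. That SE takes the 2 genes as independent though they were read on the same arrays, so whether their sizes differ was not tested.

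Both sirohaem genes were lower in replicate 1. MET1 (YKR069W), which methylates uroporphyrinogen III in the first step towards sirohaem, read 275, 424 and 455 in the deletion, against 339, 445 and 497 in wild type, a difference in replicate 1 of -0.57 (SE 0.080, limma adjusted p = 0.00587). The call was lost without deletion 1 (-0.47, adjusted p = 0.0557). MET8 (YBR213W), which carries out the last steps including iron insertion, read 355, 439 and 419 in the deletion, against 374, 428 and 428 in wild type. Its difference of -0.24 (SE 0.055, limma adjusted p = 0.0213) was the smallest of the 10. That call was lost without wild type 1 (-0.28, adjusted p = 0.0741), deletion 1 (-0.20, 0.143), deletion 2 (-0.22, 0.0782) or deletion 3 (-0.24, 0.0573).

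MET17 (YLR303W), which joins sulfide to O-acetylhomoserine, was lower in replicate 1 as well. It read 2388, 4892 and 4644 on deletion arrays 1, 2 and 3, against 3156, 4728 and 4599 on wild-type arrays. The difference was -0.78 (SE 0.10, limma adjusted p = 0.00527), and the replicate 2 and 3 arrays of both genotypes lay within a narrow band of 4599 to 4892.

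In order of the drop, the genes ran SUL2, MET10, MET5, MET3, MET14, MET17, MET16, MET1, SUL1 and MET8. Of the 9 neighbouring pairs in that order, only MET14 and MET17 were separated by more than 2 combined SE (gap 0.35, combined SE 0.17). The combined SE takes the genes of a pair as independent, which genes read on the same arrays are not, so the order was not tested. MET5 and MET3 were 0.0079 apart, MET3 and MET14 0.0067, and MET17 and MET16 0.017. The calls for SUL2, MET3, MET14, MET16, MET5, MET10 and MET17 held under all 11 alternatives run for them. Over all genes, 1992 passed in both directions with all arrays, 1071 without deletion 2 and 1259 without deletion 3, and fewer without either replicate 1 array. How many of the 1992 kept their call under all alternatives was not counted, so the steadiness of the members' calls has no background here.

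**Figure D2:**
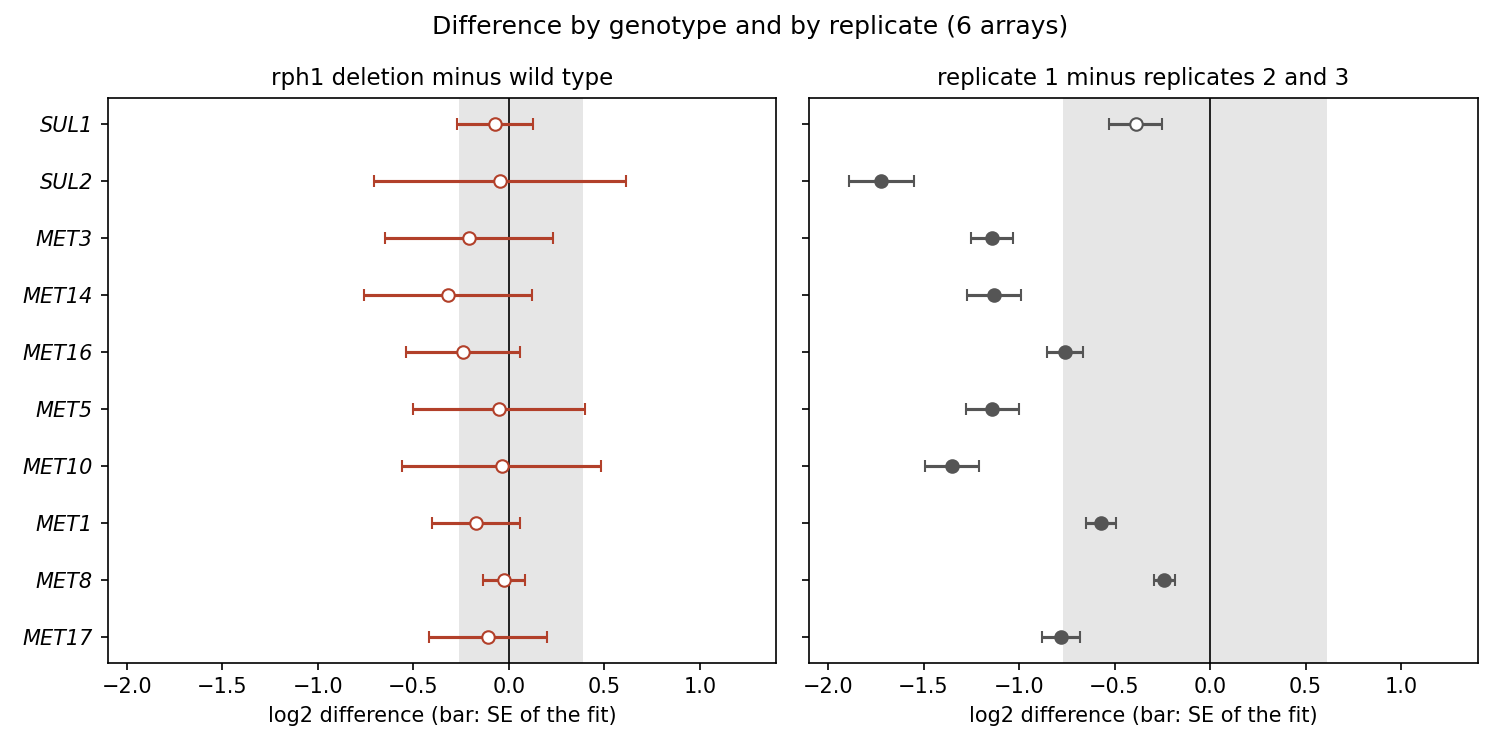
Log2 difference of each of the 10 genes, rph1 deletion minus wild type (left) and replicate 1 minus replicates 2 and 3 (right), with the SE of each limma fit as bars and filled points where the adjusted p was under 0.05. The grey band holds the central 95% of all 5402 tested genes. All 10 genotype points are open with bars that cross 0, and 9 of 10 replicate points are filled, 5 of them below -1.

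Within the replicate 1 pair the deletion array was the lower one for all 10 genes, as it was for 46.3% of all tested genes. The order deletion 1 below wild type 1 below the other 4 arrays held in 10 of 10, against 12.3% of all tested genes. It only joins that count with the one for both replicate 1 arrays lowest, so it is no further result. Of all tested genes 1357 had both replicate 1 arrays lowest, and 663 of these had the order. The pair's log2 differences ran from -0.56 for MET14 to -0.075 for MET8, with a median of -0.43 beside 0.016 over all tested genes. A difference under -0.25 was found for 8 of 10 in this pair, against 7.76% of all genes. The gap between deletion 1 and wild type 1 was set beside both gaps between same-genotype arrays of replicates 2 and 3. It was wider than both in 8 of the 10 genes, all but SUL1 and MET10. For MET8 it was only just wider, at 0.075 beside 0.067 in the deletion. How many of all tested genes showed this was not counted, so nothing particular to the 10 can be read from it. Each value here is 1 array against 1, so this pair has no replicate of its own and no test.

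In the other pairs the signs were mixed. Of the 10 genes 4 were lower in the deletion in the replicate 2 pair (background 47.3%), with a median of 0.043, and 7 in the replicate 3 pair (background 50%), with a median of -0.046. For MET14 the replicate 3 pair differed by -0.49, close to the -0.56 of the replicate 1 pair. Fitted on these 4 arrays alone, 0 of 10 passed, against 0.037% of all genes, and 0 of 10 had an unadjusted p under 0.05, against 10.6%. The differences ran from -0.19 (SE 0.15) for MET14 to 0.19 (SE 0.11) for SUL2, with a median of -0.010. MET3, MET16, MET1 and SUL1 were lower in the deletion in all 3 pairs (4 of 10, background 14.7%). That count depends on pairing by number. Deletion 3 lay above wild type 2 for MET3 (868 against 815), MET1 (455 against 445) and SUL1 (40.2 against 31.9), and below it for MET16 (757 against 766). SUL2, MET5 and MET17 were lower in the replicate 1 pair and higher by sign in the other pairs (3 of 10, background 8.33%). In the replicate 3 pair SUL2 was in effect level, at 0.00066, and MET17 nearly so, at 0.014.

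The difference between the replicate 1 pair and the other pairs was tested as an interaction of genotype with replicate 1. None of the 5402 genes passed in limma (0 genes, 0%), while 358 had an unadjusted p under 0.05 (6.63%). This fit takes its spread from replicates 2 and 3 alone, with 2 residual degrees of freedom, and without wild type 2 it called 3 genes, none of them a member. The interaction was below 0 for all 10 members (background 46.9%), with a median of -0.39 beside 0.014 over all genes. The median was -0.24 without wild type 2, and SUL1 was above 0 without wild type 2 or without deletion 3. The unadjusted p was under 0.05 for 3 of 10 in that direction, against 2.98% of all genes. The largest were SUL2 (-0.73, SE 0.19, limma adjusted p = 0.627), MET5 (-0.62, SE 0.13, limma adjusted p = 0.561) and MET17 (-0.43, SE 0.11, limma adjusted p = 0.627).

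**Figure D3:**
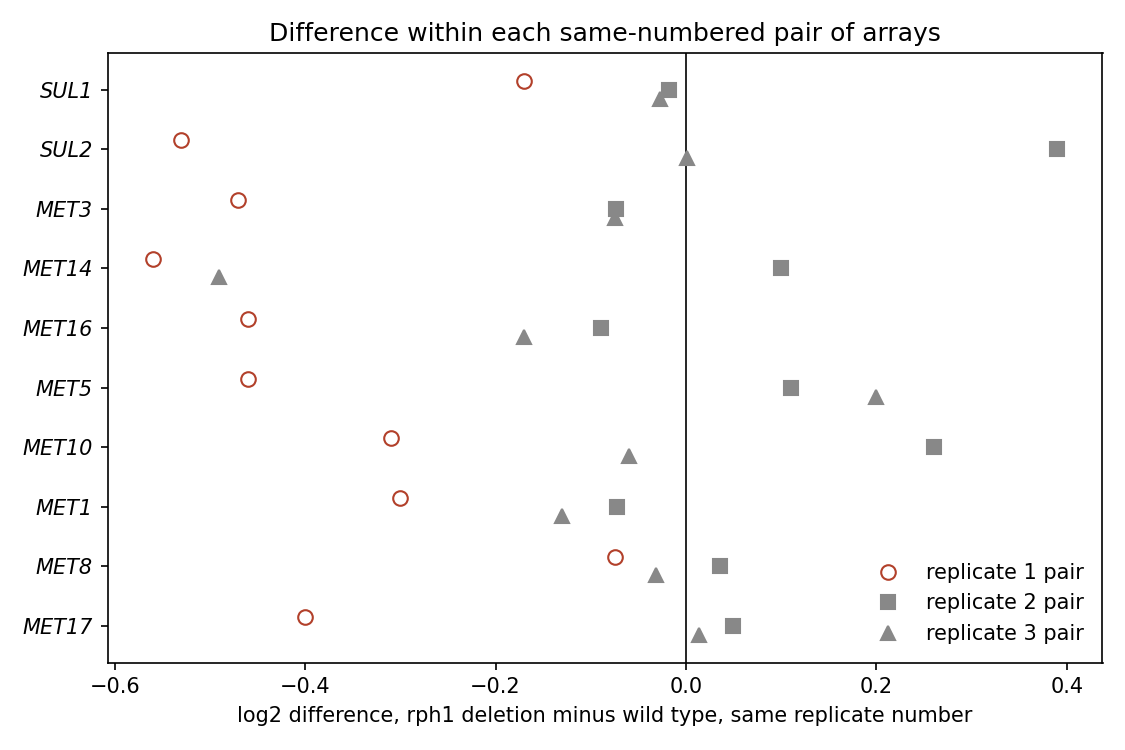
Log2 difference, rph1 deletion minus wild type, within each same-numbered pair of arrays for the 10 genes; open red circles are the replicate 1 pair, grey squares replicate 2 and grey triangles replicate 3. All 10 open circles lie left of 0, between -0.56 and -0.075, while the grey points lie on both sides.

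The genotype values of the 10 moved when a replicate 1 array was left out. Without deletion 1, the 10 differences were all above 0 with a median of 0.17. Without wild type 1 they were all below 0 with a median of -0.37. Either omission leaves replicate 1 in 1 genotype only. As both replicate 1 arrays read lowest for all 10 genes, the direction of each move was fixed in advance. The shares of all tested genes on either side of 0 were not counted. The term for replicate 1 kept the differences and cut their SE, for SUL2 to 0.16 where genotype alone gave 0.66, and for MET10 to 0.13 where it gave 0.52. With it the smallest limma adjusted p among the 10 was 0.299, for MET16 (-0.24, SE 0.088), and with the replicate block it was 0.361, for the same gene.

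The genes around the pathway were read from lists of other sulfur genes. No gene of these 5 lists passed for genotype over all arrays, with the block or with the replicate 1 term. Against replicates 2 and 3, the methionine cycle list was lower in replicate 1 for 5 of 12 tested genes and higher for 0, against 18.5% of all tested genes lower and 18.4% higher. The strongest was MET2, homoserine O-acetyltransferase, which makes the partner that Met17 joins to sulfide. It read 158, 468 and 473 on deletion arrays 1, 2 and 3, against 221, 315 and 382 on wild-type arrays, a difference of -1.12 (SE 0.21, limma adjusted p = 0.0113), and of -0.65 without deletion 1 (adjusted p = 0.0482). As in the 10, both replicate 1 arrays were lowest and deletion 1 was lowest of all. HOM3, aspartate kinase at the head of the homoserine branch, MET6, methionine synthase, SAM2, an S-adenosylmethionine synthetase, and MET13, a methylenetetrahydrofolate reductase, were lower by smaller amounts, from -0.51 for MET6 to -0.23 for MET13, which was at -0.14 and lost its call without deletion 1 (limma adjusted p = 0.262). SAM1, the other S-adenosylmethionine synthetase, differed by -0.10 (SE 0.081) and did not pass.

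Of the transsulfuration and glutathione genes 4 of 7 were lower in replicate 1 (background 18.5%) and 0 higher (background 18.4%). GSH1, the first enzyme of glutathione synthesis, read 1351, 2614 and 2587 in the deletion, against 1413, 2376 and 2448 in wild type. It differed by -0.86 (SE 0.062, limma adjusted p = 0.00117), with the replicate 1 arrays of the 2 genotypes close together. STR2 and STR3, which work between cysteine and homocysteine, differed by -0.56 (SE 0.089) and -0.69 (SE 0.13), while CYS3 and CYS4, of the opposite branch, differed by -0.10 (SE 0.084) and -0.11 (SE 0.056) and did not pass. IRC7, a beta-lyase gene, was also lower, at -0.46 (SE 0.084).

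Of the 7 regulators, 2 were lower in replicate 1 and 1 was higher, shares near the 18.5% and 18.4% of all tested genes. MET4, the activator of the pathway, had a difference of -0.36 (SE 0.068, limma adjusted p = 0.0117), and CBF1, a DNA-binding partner, one of -0.20 (SE 0.061, limma adjusted p = 0.0444). MET31, encoding another, was higher, at 0.32 (SE 0.073, limma adjusted p = 0.0196). MET28, MET32, MET30 and GCN4 did not pass. For MET30, a ubiquitin ligase subunit that restrains Met4, the value was -0.17 (SE 0.082).

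Among genes that import or use sulfur compounds, 6 of 10 tested were lower in replicate 1 (background 18.5%) and 1 was higher (background 18.4%). MUP1, the high-affinity methionine permease, read 1022, 1796 and 1881 in the deletion, against 1230, 1678 and 1673 in wild type, a difference of -0.65 (SE 0.10, limma adjusted p = 0.00695). The S-methylmethionine permease gene MMP1 differed by -0.57 (SE 0.083), the S-adenosylmethionine permease gene SAM3 by -0.52 (SE 0.059), the homocysteine methyltransferase genes MHT1 and SAM4 by -0.80 (SE 0.12) and -0.30 (SE 0.073), and the permease gene SEO1 by -0.89 (SE 0.26). JLP1, a sulfonate dioxygenase used to release sulfur from sulfonates, was higher, at 0.32 (SE 0.073, limma adjusted p = 0.0204). Of the auxiliary enzymes 1 of 5 was lower, near the background of 18.5%. It was MET22, the phosphatase that clears the by-product of PAPS reduction, at -0.17 (SE 0.051, limma adjusted p = 0.0484). The thioredoxin genes TRX1 and TRX2, whose products supply electrons to PAPS reductase, differed by -0.00056 (SE 0.064) and 0.00012 (SE 0.066).

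**Figure D4:**
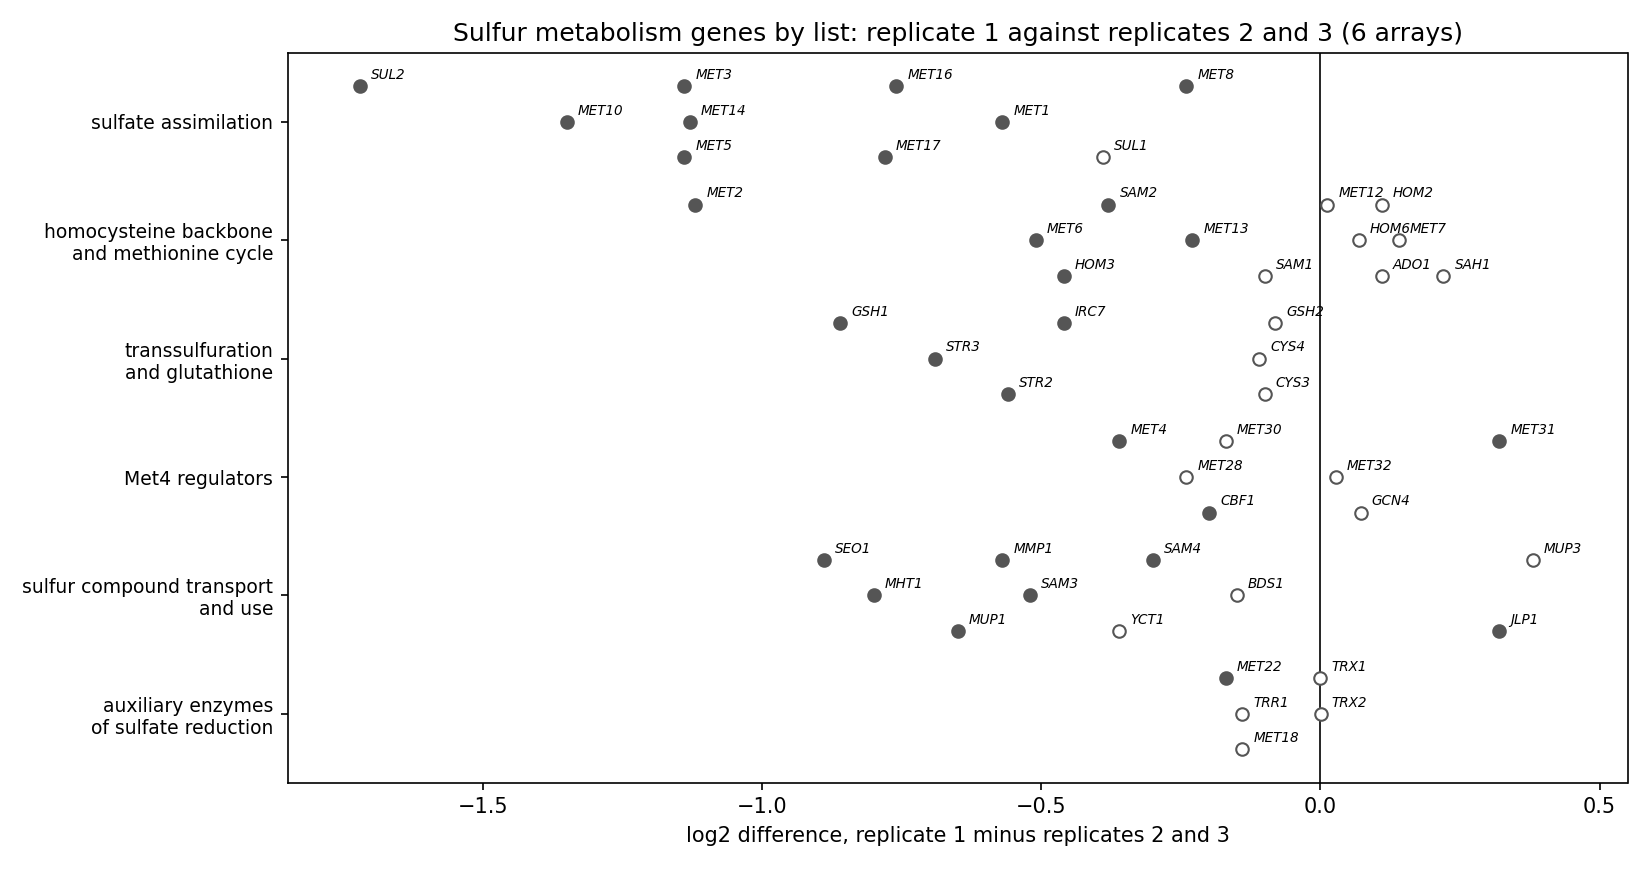
Log2 difference, replicate 1 minus replicates 2 and 3, for each tested gene of the sulfate assimilation set and of 5 further lists of sulfur genes; filled points have a limma adjusted p under 0.05, and height within a row only separates the labels. The sulfate assimilation row lies wholly below 0 and reaches -1.72, and the filled points above 0 are MET31 and JLP1.

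Across the 5 lists 20 of 41 tested genes passed in that comparison (48.8%, against 36.9% of all tested genes), and 6 of them, MET2, SAM2, STR2, GSH1, MUP1 and SAM3, did so under all 11 alternatives. The other 14 lost the call under at least 1, mostly when an array was left out. CBF1 lost it under 8 of the 11, MET13 and MET22 under 7 and SEO1 under 6. For CBF1 and MET13 these included quantile normalization and median centring. By genotype, the members of these lists with the smallest unadjusted p were MET12, a methylenetetrahydrofolate reductase (-0.12, SE 0.073), and HOM2 (-0.067, SE 0.082) in the methionine cycle, and CYS3 (-0.12, SE 0.10) and IRC7 (-0.23, SE 0.19) in transsulfuration. MET31 (-0.16, SE 0.14) and MET30 (-0.10, SE 0.11) were next among the regulators. JLP1 (-0.26, SE 0.14) and the cysteine transporter gene YCT1 (-0.23, SE 0.18) stood in the transport list, and MET22 (-0.13, SE 0.089) and the thioredoxin reductase gene TRR1 (-0.074, SE 0.10) among the auxiliary enzymes. All of these had a limma adjusted p of 1.00, and all but MET12 moved by over 1.5 times when single arrays were left out. In the transport list all 10 tested genes lay below 0, as 49.6% of all tested genes did, MUP1 by only -0.00019, with a median of -0.22 over all arrays and -0.14 in replicates 2 and 3.

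Other genes shared the members' profile over the 6 arrays. The mean centred log2 profile of the 10 was -0.80, 0.29 and 0.32 on deletion arrays 1, 2 and 3, against -0.43, 0.22 and 0.40 on wild-type arrays. By root mean square difference from it over 6 arrays, the 5 closest genes outside the set were HBN1 (0.038), SNZ1 (0.055), MCH4 (0.058), GRX8 (0.068) and ARG81 (0.078). HBN1, resembling bacterial nitroreductases, read 274, 584 and 564 in the deletion, against 345, 542 and 587 in wild type. SNZ1 acts in vitamin B6 synthesis, GRX8 is a glutaredoxin and ARG81 a regulator of arginine metabolism. Among the 10 themselves the distance from the mean profile ran from 0.095 for MET16 to 0.39 for SUL2, whose drop was deeper than the mean, and 0.34 for MET8, whose drop was shallower.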

How the data were processed

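The deposited values are MAS5 signal intensities per probe set on a linear scale, per the submitters' processing notes; neither their version nor a scaling target is given in the sources used here. Per the labels' protocols, biotin-labelled cRNA came from 10 µg of total RNA. All 6 arrays shared a 2% trimmed mean of 500.2, and log2 was taken with no further scaling. Of 10928 probe sets, 5498 matched 1 S. cerevisiae gene (RefSeq R64 names), covering 5449 genes, and the brightest probe set was kept for the 47 genes with several. The 1746 probe sets of fission yeast set the background, and the 5402 genes whose mean log2 signal exceeded their 95th percentile, 3.06 (a signal of 8.32), were tested. Median signals of tested genes were 598.8 to 628.1 on the 6 arrays. The number of arrays limits the precision.

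Fits were made in R 4.3.3 with lmFit and eBayes of limma 3.58.1 (2-sided, Benjamini-Hochberg over all tested genes, threshold 0.05) and were tested on simulated data. The simulated data for the genotype-only fit held no replicate 1 shift, so they do not show how that fit behaves on these arrays. Exact permutation tests used scipy 1.17.1, figures matplotlib 3.10.9 in Python 3.11.15. The replicate 1 comparison used genotype and sample code form as terms, and the interaction added their product. Same-numbered arrays were treated as pairs. Correlations of their deviations from group means were 0.768, 0.454 and 0.415 for replicates 1, 2 and 3. Deletion 2 correlated more with wild type 3 (0.535) and deletion 3 with wild type 2 (0.471). Deviations from a group mean cancel out within the group, so a shift of replicate 1 by itself makes the arrays of replicates 2 and 3 correlate. The pairing within replicates 2 and 3 therefore rests on the label numbers.

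The members and lists were chosen with earlier results of these data known. Named were the 10 members, RPH1, list genes that passed a comparison, the 2 smallest unadjusted p by genotype in each list, and the 5 closest profiles; the other genes given to complete an enzyme pair or a list, MET28, MET32, GCN4, SAM1, CYS4, TRX1 and TRX2, were named outside that rule. SOA1 was not matched to a probe set. Alternatives were other normalizations, an offset of 32, no filter, the dimmest probe set, the block, the replicate 1 term, parts of the arrays, array weights and an intensity trend.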

Additional observations from a re-analysis of the deposited data

How the results depend on the processing

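By genotype, 0 of the 10 sulfate assimilation genes passed under each setting that gave a test. Their median log2 difference was -0.093 over all arrays, -0.43 in the replicate 1 pair alone, -0.010 in replicates 2 and 3 and 0.0125 with array weights, and leaving out single arrays moved it between -0.37 and 0.17. The count over all genes was 2; it was 1 after quantile normalization, with an offset of 32 or with an intensity trend, 6 with the replicate block, 34 with the replicate 1 term and 202 with array weights, and 1 to 2 when an array was left out. The weights put 0.213 on deletion 1 and 0.253 on wild type 1, against 0.640 to 4.28 on the others, and their estimation stopped short of its tolerance. The block changed no call of a named gene. The sign turned in replicates 2 and 3 for SUL2 (0.195), MET5 (0.155), MET10 (0.0998), MET17 (0.032), MET8 (0.0024) and TRR1 (0.023). With array weights it turned for SUL2 (0.289), MET10 (0.225), MET5 (0.140), SUL1 (0.063), MET17 (0.016), MET8 (0.0093) and MET30 (0.037). Leaving out single arrays gave ranges of -0.24 to 0.082 for SUL1, -0.50 to 0.65 for SUL2, -0.52 to 0.24 for MET3, -0.63 to 0.12 for MET14, -0.44 to 0.071 for MET16, -0.33 to 0.43 for MET5, -0.42 to 0.48 for MET10, -0.325 to 0.058 for MET1, -0.089 to 0.068 for MET8, -0.30 to 0.22 for MET17 and -0.125 to 0.021 for TRR1, and, with no turn of sign, -0.34 to -0.025 for IRC7, -0.16 to -0.037 for CYS3, -0.12 to -0.012 for HOM2, -0.28 to -0.066 for MET31, -0.16 to -0.0084 for MET30, -0.34 to -0.12 for JLP1, -0.40 to -0.11 for YCT1 and -0.18 to -0.068 for MET22. The cause of these turns was not tested, beyond the fact that omitting a replicate 1 array leaves that replicate in 1 genotype.

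For replicate 1 against replicates 2 and 3, the median of the 10 was -0.95, between -0.97 and -0.92 under other scalings, offset and filter, and -1.16 to -0.72 without single arrays, and 7 to 10 genes passed. The count over all genes ran from 523 to 1935 without single arrays. For the interaction, 0 to 3 genes passed without single arrays of replicates 2 and 3, the median of the 10 ranged from -0.45 to -0.24 and SUL1 from -0.33 to 0.031. The interaction could not be fitted without a replicate 1 array.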
